A study of Bos taurus with 4 samples.

Results

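The WNT pathway was represented on a bovine embryo microarray by 49 of the 15229 genes named there, through 56 probes out of 43794 embryo probes, of which 21790 carried a gene symbol. The genes were chosen by symbol alone, from the platform annotation: WNT, frizzled (FZD) and dishevelled (DVL) genes, the secreted SFRP and DKK families, AXIN genes, and LRP5, LRP6, CTNNB1, APC, GSK3A, TCF7, TCF7L1, TCF7L2 and LEF1. Earlier results of these data were known when the genes were chosen. Family members that carried no symbol in that annotation, such as GSK3B and FZD6, were not analysed here.

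The samples were bovine blastocysts, embryos with an outer trophectoderm and an inner cell mass, made by fertilization and culture in vitro of oocytes from slaughterhouse ovaries. The groups differed in the age of the sire: sperm came from bulls at 10 months in one group and at 16 months in the other, and the same 4 bulls gave sperm at either age, per the design. The 4 arrays each held amplified RNA of both groups, with the 10-month sample in Cy5 on replicates 1 and 2 and in Cy3 on replicates 3 and 4. The labels call the arrays biological replicates, but they tie no array to a bull and give neither the number of embryos nor the breed.

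WNT proteins are secreted, lipid-carrying signals that bind FZD receptors together with the co-receptors LRP5 and LRP6. In the canonical branch, receptor binding acts through DVL proteins to stop a complex of APC, AXIN and GSK3 from marking β-catenin (CTNNB1) for degradation, and β-catenin then works with the TCF and LEF factors at target genes. SFRP proteins bind WNTs outside the cell and DKK proteins act on LRP5 and LRP6, while other branches signal through FZD without β-catenin. In cattle, the pathway has been studied with activators and with DKK1 added to embryos in culture before and at the blastocyst stage.

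Each probe gave 8 readings, 1 per age on each of 4 arrays. A reading was taken as above background if the median of its spot lay more than 2 median absolute deviations over that of the 153 (-)3xSLv1 negative control spots in the same channel. By that rule 0.654% to 11.8% of the negative control spots themselves were above background, so a lone reading carries little weight. Signals are given below as multiples of the negative control median of the same channel. Those medians were 61 to 103 intensity units in Cy5 and 194 to 235 in Cy3, so a multiple in Cy5 and a multiple in Cy3 are not on the same scale. Brightness also depends on the probe, so one gene's multiple says nothing of its level against another gene's.

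Of the 56 WNT probes, 47 had a reading above background on 2 arrays or more, or 83.9%, against 86.3% of all embryo probes with a symbol. All 8 readings were above background for 21 of 56 probes, or 37.5%, against 53.7% of all probes with a symbol. None of the 8 was above background for 6 of 56, or 10.7%, against 8.17%. The WNT probes were mostly dim: the brightest reading stayed under 2 times the negative control for 35 of 56, or 62.5%, against 48.8% of all probes with a symbol. It reached at least 20 times for 6 of 56, or 10.7%, against 16.3%, and these stood for FZD4, LRP6, DKK3, AXIN1, CTNNB1 and DVL2. Of the 18 ligand probes 15 stayed under 2 times. Of the 10 probes for cytoplasmic proteins 3 were, while 7 of them were above background in all 8 readings.

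**Figure D1:**
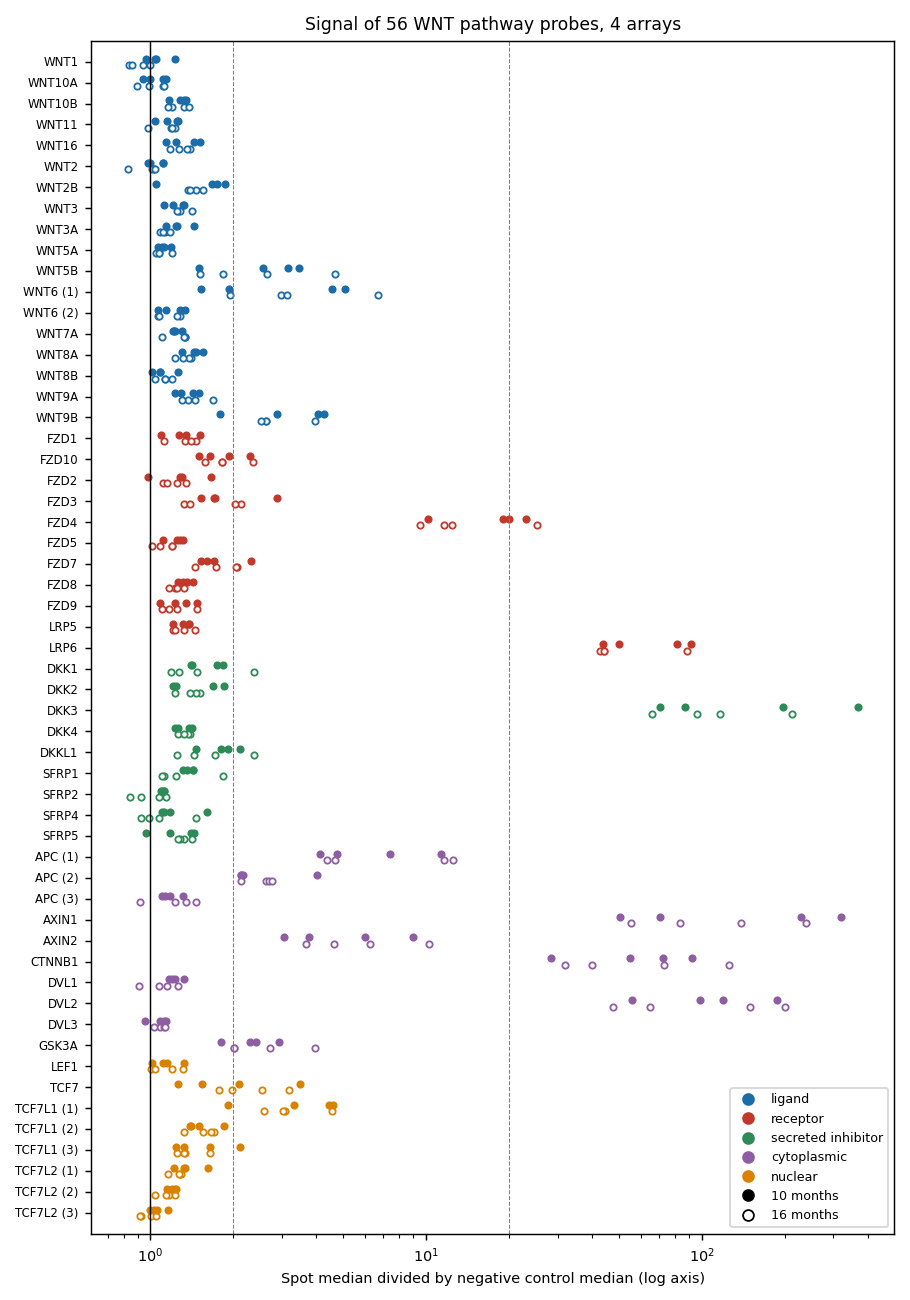
Each row is 1 of the 56 WNT probes, grouped by role, and each point is 1 of its 8 readings as a multiple of the negative control median of the same channel, on a log axis; filled points are 10 months, open points 16 months, and the dashed lines stand at 2 and 20 times. The ligand rows sit near the left edge apart from WNT5B, WNT9B and 1 WNT6 probe, and the 6 rows that pass 20 times are FZD4, LRP6, DKK3, AXIN1, CTNNB1 and DVL2.

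The age of the sire was tested on the log2 ratio of 10 over 16 months with limma, with a dye coefficient that the balanced dye orientation lets the fit remove. No probe of 36325 tested passed an adjusted p of 0.05, or 0%, and the smallest adjusted p was 0.957 (limma, Benjamini-Hochberg over all probes). An unadjusted p under 0.05 was reached by 1439 probes, or 3.96%, with 2.05% higher and 1.92% lower at 10 months. Among the 47 WNT probes tested, 0 passed the adjusted test and 1 had an unadjusted p under 0.05, or 2.13%, so no more often than over all probes. That probe was TCF7, lower at 10 months. All 47 intervals of 95% lay within a 2-fold difference in either direction, against 99.45% of all tested probes. Within 1.5-fold lay 41 of 47, against 87.18%. Most WNT probes were dim, so a narrow interval of an array ratio is no bound on the difference in RNA. The median half-width was 0.30 on the log2 scale, or 1.24-fold. Array data of whole embryos do not tell fewer cells of a type from less RNA per cell.

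The 47 tested probes stood for 41 genes, each taken by its brightest probe. The fitted log2 ratio was above 0 for 25 of 41 genes, or 61.0%, against 49.2% of all 13506 tested genes. Among the 19 genes left when only probes with all 8 readings above background were kept, it was above 0 for 9, with a median of -0.025, so the direction turned. The median over the 41 genes was 0.04, against -0.0027 over all tested genes, and the median size without sign was 0.099 against 0.10. By role, the medians were 0.03 over 12 ligand genes, 0.09 over 11 receptor genes, 0.09 over 7 secreted inhibitor genes, -0.06 over 7 cytoplasmic genes and -0.0036 over 4 nuclear genes. Every fitted ratio lay between -0.36 (TCF7) and 0.37 (FZD4). The gene medians on single arrays were 0.06, 0.06, -0.02 and 0.01 on replicates 1 to 4, and those values still hold the dye effect.

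**Figure D2:**
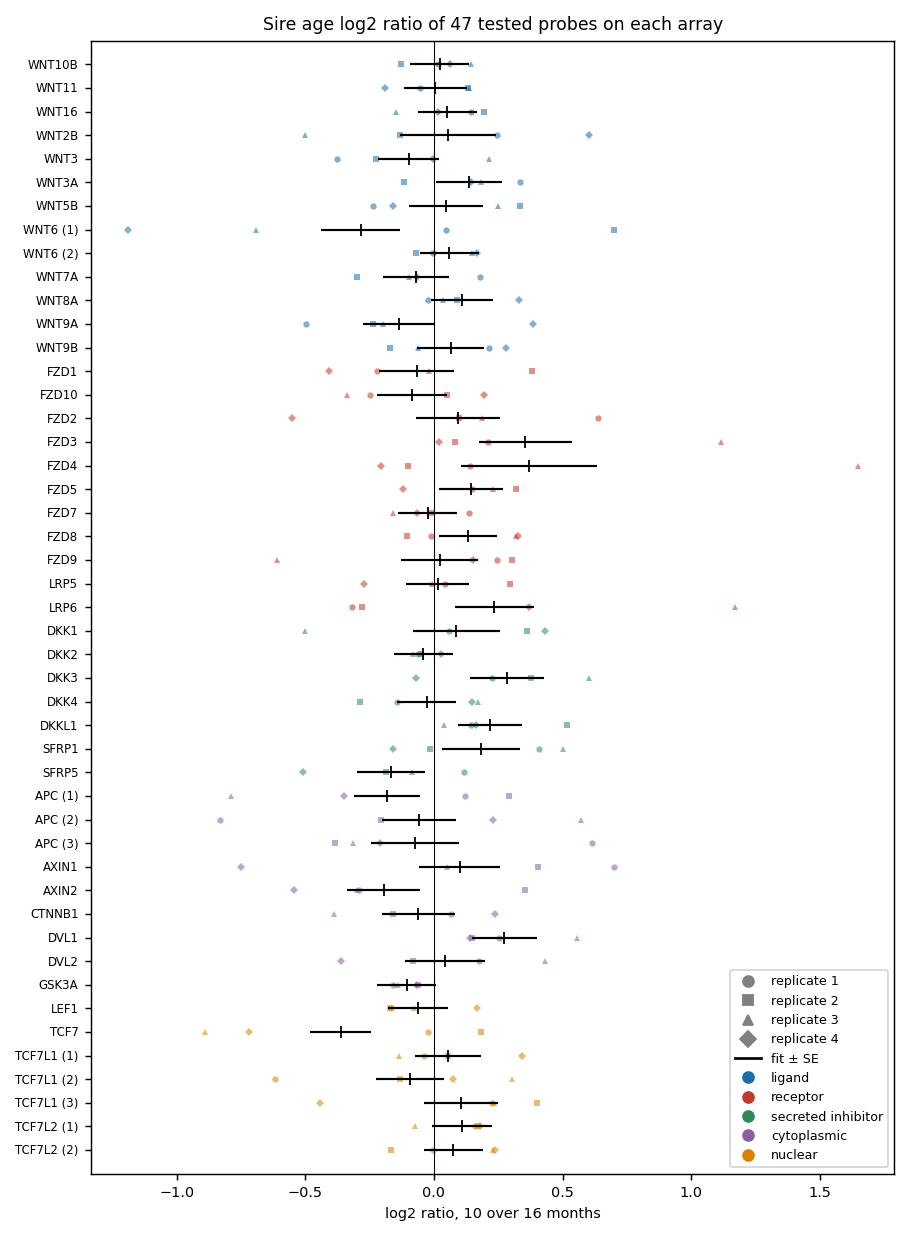
Each row is 1 of the 47 tested WNT probes; small points give the log2 ratio of 10 over 16 months on each of the 4 arrays, and the large point with its bar gives the fitted ratio ± its standard error. The fitted ratios lie between -0.36 and 0.37, while single arrays reach -1.19 (WNT6) and 1.65 (FZD4).

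The 17 ligand genes had 18 probes, of which 13 were tested. WNT5B, WNT6, WNT9A and WNT9B were above background in all 8 readings. WNT2, WNT5A and WNT10A were above background in none, and WNT1 and WNT8B in 1 each, so these 5 ligands were not tested. For the 3 ligands without any such reading, the multiples ran from 0.827 to 1.12 for WNT2, from 1.05 to 1.2 for WNT5A and from 0.894 to 1.14 for WNT10A. WNT5A and WNT5B are best known for signalling without β-catenin, and of this pair only WNT5B had a signal clear of the negative control, reaching 4.66 times. WNT3 and WNT3A, which signal through β-catenin in mouse gastrulation, were above background in 7 and 2 of 8 readings, and neither passed 1.44 times. WNT9B, an inducer of kidney tubules in the mouse, reached 4.25 times.

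WNT6 had the brightest ligand probe (EMBV3_03932). At 10 months it read 4.55, 5.1, 1.52 and 1.93 times the negative control on replicates 1 to 4, and at 16 months 2.98, 1.94, 3.14 and 6.69 times. The age with the higher multiple was the one in Cy5 on every array, but multiples in Cy5 and Cy3 are not on the same scale. The log2 ratios were 0.04, 0.70, -0.69 and -1.19, positive on both arrays of one dye orientation and negative on both of the other. The fitted ratio was -0.29 ± 0.15 (SE, 4 arrays, 95% interval -0.64 to 0.07, limma adjusted p = 0.957), and the fitted dye effect, Cy5 over Cy3, was larger at 0.66. The second WNT6 probe (EMBV3_16955) was above background in 3 of 8 readings and fitted at 0.06 ± 0.11. Of the other tested ligands, WNT5B fitted at 0.05 ± 0.14, WNT9B at 0.06 ± 0.13, WNT9A at -0.14 ± 0.14 and WNT3A at 0.14 ± 0.13. The remaining 7 (WNT2B, WNT3, WNT7A, WNT8A, WNT10B, WNT11 and WNT16) lay between -0.10 and 0.11. With spot means in place of medians, the WNT3A ratio was -0.07.

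Several WNT genes lie next to each other in the bovine genome, as in other mammals. In the order of genes of the RefSeq table for ARS-UCD2.0, 4 pairs of the ligands measured here were direct neighbours. WNT9B and WNT3 were above background in 8 and 7 of 8 readings. WNT6 and WNT10A were above background in 8 and 0 readings, WNT3A and WNT9A in 2 and 8, and WNT1 and WNT10B in 1 and 5. The neighbours were thus furthest apart in detection for WNT6 with WNT10A and for WNT3A with WNT9A.

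All 11 receptor probes were tested: 9 FZD genes, which encode 7-pass membrane receptors, and the co-receptors LRP5 and LRP6. FZD3, FZD4, FZD7, FZD10 and LRP6 were above background in all 8 readings, and FZD1, FZD2, FZD5, FZD8, FZD9 and LRP5 in 4 to 6. Of the latter 6 none passed 1.66 times. The fitted ratio was positive for 8 of 11, beside 49.2% of all tested genes, and negative for FZD1, FZD7 and FZD10. Of the receptors with all 8 readings above background, FZD3, FZD4 and LRP6 were positive and FZD7 and FZD10 negative. None of the 11 had an unadjusted p under 0.05.

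LRP6, which forms the signalling complex with FZD and is the target of DKK1, had the brightest receptor probe. It read 81.2, 91.5, 50 and 43.9 times the negative control at 10 months and 44.2, 42.8, 44.2 and 88.5 times at 16 months. Its log2 ratios were -0.32, -0.28, 1.17 and 0.37, negative on replicates 1 and 2 and positive on replicates 3 and 4. It fitted at 0.23 ± 0.15 (95% interval -0.12 to 0.59, limma adjusted p = 0.957) beside a dye effect of -0.53. LRP5, its close relative, reached 1.46 times and fitted at 0.02 ± 0.12.

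FZD3, a receptor known from axon guidance and planar polarity in the mouse, had a log2 ratio above 0 on all 4 arrays. Its multiples were 1.52, 1.72, 2.87 and 1.7 at 10 months and 1.32, 1.4, 2.13 and 2.03 at 16 months. The log2 ratios were 0.21, 0.08, 1.12 and 0.02, so replicate 3 stood far above the others. It fitted at 0.36 ± 0.18 (95% interval -0.06 to 0.77, limma adjusted p = 0.957). FZD4, which also serves as the receptor of the non-WNT ligand norrin, read 23.1, 19, 19.9 and 10.2 times at 10 months and 11.7, 9.48, 12.4 and 25.2 times at 16 months. Its log2 ratios of 0.14, -0.10, 1.65 and -0.21 again had the highest value on replicate 3. The fitted ratio was 0.37 ± 0.26 (95% interval -0.24 to 0.98, limma adjusted p = 0.957). Neither had an interval clear of 0.

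FZD3 and FZD4 were the WNT genes whose call turned on 1 array. Without replicate 4, replicate 3 alone stood for its dye orientation, and the fit called 5.11% of all probes at an adjusted p under 0.05 and 18.1% at an unadjusted one. In that fit FZD4 stood at 0.83 (limma adjusted p = 0.0128) and FZD3 at 0.63 (limma adjusted p = 0.0229), the 2 WNT probes past the adjusted test, and 9 of 47 WNT probes had an unadjusted p under 0.05. Without replicate 3 the shares over all probes were 0.0165% and 6.39%, FZD3 and FZD4 passed neither threshold, and 0 WNT probes passed the adjusted test. In that fit 4 of 47 had an unadjusted p under 0.05, namely DKK1, TCF7, WNT2B and WNT6. Each of these fits assumes that the lone array of an orientation varies like the others. Replicate 3 had the widest ratios over all embryo probes, dim ones included, with an SD of 0.44 against 0.29 to 0.31 on the other arrays. Its part in the FZD3 and FZD4 values was not tested beyond these fits.

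The secreted inhibitors numbered 9 genes with 1 probe each. DKK3 and DKK4 were above background in all 8 readings, DKK1, DKK2 and DKKL1 in 7, SFRP5 in 6 and SFRP1 in 5. SFRP4 had 2 such readings, both on the same array, and SFRP2 had 0, so neither was tested. The SFRP probes never passed 1.83 times. DKK3, a member of the DKK family that is not an established inhibitor of LRP6, gave the brightest WNT reading at 368 times.

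For DKK3 the multiples at 10 months were 197, 368, 86.7 and 70.7, and those at 16 months 65.8, 95.8, 116 and 212. The Cy5 sample had the higher multiple on every array, on a scale that differs between the dyes. The log2 ratios after normalization were 0.23, 0.38, 0.60 and -0.07, above 0 on 3 of 4 arrays. Its fit gave 0.28 ± 0.14 (95% interval -0.05 to 0.62, limma adjusted p = 0.957), with a dye effect of 0.02. DKKL1, a DKK-like gene best known from the testis, had log2 ratios of 0.14, 0.52, 0.04 and 0.16. All 4 were above 0 and the fit gave 0.22 ± 0.12 (95% interval -0.07 to 0.50). DKK1, the classic LRP6 antagonist, reached 2.37 times and fitted at 0.09 ± 0.17, with single arrays between -0.50 and 0.43. SFRP1 fitted at 0.18 ± 0.15, SFRP5 at -0.17 ± 0.13, DKK2 at -0.04 ± 0.11 and DKK4 at -0.03 ± 0.11.

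The 8 cytoplasmic genes had 10 probes. AXIN1, AXIN2, CTNNB1, DVL2, GSK3A and 2 of 3 APC probes were above background in all 8 readings. DVL1 was in 3 and the third APC probe in 4. DVL3 was in 0, with multiples from 0.959 to 1.14, and was not tested. Among the 3 dishevelled genes, which relay the signal from FZD, only DVL2 was therefore bright, at 47.6 to 200.1 times.

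AXIN1, the scaffold of the complex that degrades β-catenin, read 229, 320, 70.7 and 50.4 times at 10 months and 55.5, 83.2, 139 and 238 times at 16 months. The Cy5 sample again had the higher multiple on every array, as also for CTNNB1 and AXIN2. The log2 ratios were 0.70, 0.40, 0.05 and -0.75, and the fit gave 0.10 ± 0.16 (95% interval -0.26 to 0.46, limma adjusted p = 0.973) beside a dye effect of 0.45. CTNNB1, which also links cadherins to the cytoskeleton, read 72.6, 92.2, 28.5 and 54.9 times at 10 months and 31.8, 40, 72.9 and 125 times at 16 months. Its log2 ratios of 0.06, -0.16, -0.39 and 0.24 fell on both sides of 0 within each orientation, and the fit gave -0.06 ± 0.14 (95% interval -0.39 to 0.27, limma adjusted p = 0.985).

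AXIN2 is both a scaffold like AXIN1 and a widely used target gene of β-catenin signalling. It read 6, 9, 3.05 and 3.78 times at 10 months and 4.64, 3.68, 6.28 and 10.2 times at 16 months. The log2 ratios were -0.29, 0.35, -0.30 and -0.54, below 0 on 3 of 4 arrays. The fitted ratio was -0.20 ± 0.14 (95% interval -0.53 to 0.14, limma adjusted p = 0.957). DVL2 fitted at 0.04 ± 0.16. DVL1 had log2 ratios of 0.25, 0.15, 0.55 and 0.14, all above 0, and fitted at 0.27 ± 0.13 (95% interval -0.02 to 0.57), though only 3 of its 8 readings were above background. GSK3A, a kinase of the same complex, had log2 ratios of -0.16, -0.06, -0.14 and -0.07, all below 0. Its fit gave -0.11 ± 0.11 (95% interval -0.37 to 0.16).

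A same-signed log2 ratio on all 4 arrays was thus found for 4 of 47 WNT probes, those of FZD3, DKKL1, DVL1 and GSK3A, or 8.51%, against 9.37% of all tested probes. The share of WNT probes was close to that background.

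The 4 nuclear genes, TCF7, TCF7L1, TCF7L2 and LEF1, encode the DNA-binding partners of β-catenin and had 8 probes, 7 of them tested. TCF7L1, best known as a repressor in mouse embryonic stem cells, had the brightest one (EMBV3_37128), which read 4.44, 4.61, 1.91 and 3.32 times at 10 months and 3.09, 2.58, 3.02 and 4.56 times at 16 months. Its log2 ratios were -0.04, 0.06, -0.14 and 0.34, on both sides of 0, and it fitted at 0.06 ± 0.13 (95% interval -0.24 to 0.36, limma adjusted p = 0.985). LEF1 was above background in 3 of 8 readings, reached 1.33 times and fitted at -0.06 ± 0.12.

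TCF7 was above background in all 8 readings. It read 2.1, 3.49, 1.26 and 1.54 times the negative control at 10 months and 1.77, 1.98, 2.54 and 3.19 times at 16 months. The log2 ratios were -0.02, 0.18, -0.89 and -0.72: replicates 1 and 2 averaged 0.08 and replicates 3 and 4 averaged -0.80. The ratio was thus well below 0 only where the 10-month sample was in Cy3. The fitted ratio was -0.36 ± 0.12 (95% interval -0.64 to -0.09, limma unadjusted p = 0.0163, adjusted p = 0.957) beside a larger dye effect of 0.44. The fitted ratio was -0.32 without replicate 3 and -0.40 without replicate 4, fits with 1 array left for a dye orientation. Without replicate 1 or replicate 2 the unadjusted p was not under 0.05.

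**Figure D3:**
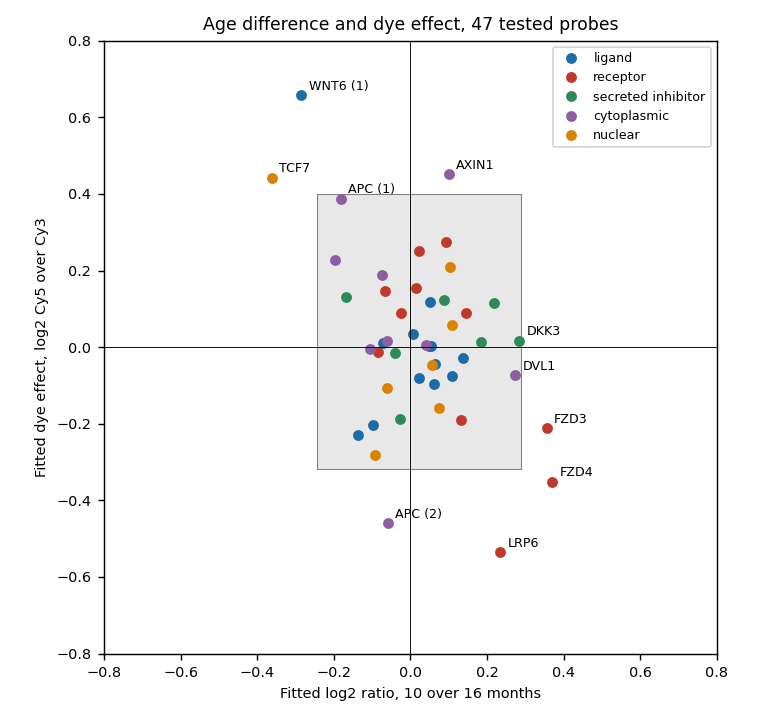
Each point is 1 of the 47 tested WNT probes, with the fitted log2 ratio of 10 over 16 months on the x axis and the fitted dye effect, log2 Cy5 over Cy3, on the y axis; the grey box spans the central 90% of all tested probes on either axis, from -0.24 to 0.29 for age and from -0.32 to 0.40 for dye. TCF7 and WNT6 lie at the upper left, lower at 10 months and brighter in Cy5, and LRP6 lies at the bottom right.

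Dye effects were of a size with the age ratios. Over the 41 WNT genes the median size of the fitted age ratio was 0.099 and that of the dye effect 0.11, against 0.10 and 0.14 over all tested genes. The dye effect was the larger for 26 of 47 WNT probes, and for 60.2% of all tested probes. Across all tested probes the log2 Cy5 over Cy3 ratios of any 2 arrays correlated positively, at r = 0.12 to 0.32 (a description over probes, which share each array's labelling), whichever age was in Cy5. Detection followed the dye as well. Of 56 WNT probes, 46, 45, 37 and 32 were above background at 10 months on replicates 1 to 4, and 36, 32, 41 and 37 at 16 months. The shares over all probes with a symbol were 82.4%, 81.6%, 67.9% and 69.9% at 10 months. At 16 months they were 72.9%, 66.1%, 79.05% and 78.2%. Detection was thus higher in Cy5 on each array for WNT probes and for all probes alike. Summed over arrays, 160 of 224 WNT readings were above background at 10 months and 146 of 224 at 16 months. These were 71.4% and 65.2%, against 75.5% and 74.1% for all probes with a symbol. No WNT probe was above background on all 4 arrays at one age and on none at the other. TCF7L2 (EMBV3_21026) was so on 3 arrays at 10 months and 0 at 16, with no multiple above 1.24 at either age, and SFRP1 on 4 and 1.

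The largest ratio of a probe, without sign, fell on replicate 3 for 16 of 47 WNT probes, on replicate 4 for 15, and on replicates 1 and 2 for 8 each. Over all tested probes, 39.4% had it on replicate 3 and 21.8% on replicate 4.

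Genes with several tested probes allowed a check within the set. The 3 APC probes, for the large scaffold that binds β-catenin, fitted at -0.18 ± 0.13, -0.06 ± 0.15 and -0.07 ± 0.17. Their signs were the same, but on replicate 3 the brightest (EMBV3_02501) stood at -0.79 and the next (EMBV3_10165) at 0.57. The dye effects of these 2 probes were 0.39 and -0.46, of opposite sign, so single-array ratios of one gene parted with the dye while the fitted ratios stayed within 0.12 of each other. The 3 TCF7L1 probes fitted at 0.06, -0.09 and 0.10, a range of 0.20. The 2 tested TCF7L2 probes fitted at 0.11 and 0.07, and a further TCF7L2 probe (EMBV3_27485) was above background in 0 of 8 readings. The 2 WNT6 probes had the widest range, 0.35, and of these only the brighter was above background in all readings. No gene had probes whose fitted ratios differed by more than 0.5.

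**Figure D4:**
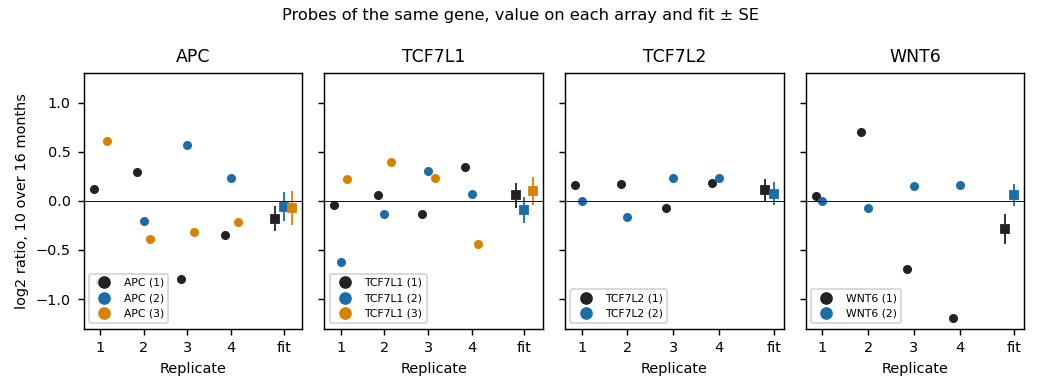
The log2 ratio of 10 over 16 months on each array (small points) and the fitted ratio ± its standard error (large points) are shown for the tested probes of APC, TCF7L1, TCF7L2 and WNT6. Fitted ratios of a gene's probes differ by 0.03 (TCF7L2) to 0.35 (WNT6), less than the single arrays of most of these probes differ among themselves.

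Other genes of the pathway were read from lists written from general knowledge, with earlier results of these data known. No gene of these lists passed the adjusted test. At an unadjusted p under 0.05 they are set beside 4.47% of all tested genes. A list of 29 genes held WNT secretion, receptor and planar polarity genes and extracellular regulators such as WIF1, FRZB and RSPO2. Of these genes 23 were tested and 14 were above 0, beside 49.2% of all tested genes. An unadjusted p under 0.05 was reached by 2, both higher at 10 months. RYK, a tyrosine-kinase-like WNT receptor, had log2 ratios of 0.14, 0.39, 1.62 and 0.09 and fitted at 0.56 ± 0.23. VANGL1, a planar polarity protein, had 0.12, -0.32, 1.08 and 0.51 and fitted at 0.35 ± 0.15. As with FZD3 and FZD4, replicate 3 held the highest value of both. VANGL1 averaged -0.10 over replicates 1 and 2 and 0.79 over replicates 3 and 4. Its dye effect of -0.45 was larger in size than its age ratio, while that of RYK was -0.30. The list's median was 0.09.

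Of 42 further cytoplasmic genes, 40 were tested, and 27 of them had a fitted ratio below 0, beside 6860 of 13506 over all tested genes, with a median of -0.07 against -0.0027. An unadjusted p under 0.05 was reached by 3 of the 40, 2 higher and 1 lower at 10 months. PPP2R5E, a regulatory subunit of protein phosphatase 2A, had log2 ratios of -0.28, -0.16, -1.19 and -0.21 and fitted at -0.46 ± 0.17 (limma unadjusted p = 0.0272, adjusted p = 0.957). MAPK8, a stress kinase of the planar polarity branch, had -0.16, -0.02, 0.96 and 0.55 and fitted at 0.33 ± 0.13, but the mean of its 2 probes was 0.12. CAMK2A, a calcium-dependent kinase, had 0.26, -0.17, 0.84 and 0.43 and fitted at 0.34 ± 0.14. Both stood highest on replicate 3. MAPK8 averaged -0.09 over replicates 1 and 2 and 0.76 over replicates 3 and 4. Its dye effect of -0.42 was larger in size than its age ratio, while that of CAMK2A was -0.29. The 24 tested of 25 further nuclear genes had a median of 0.03, and the 26 tested of 31 WNT target genes a median of 0.01, with 0 genes of either list at an unadjusted p under 0.05. The 12 catenin and cadherin genes had a median of -0.09, with -0.36 on replicate 3 and -0.05 to 0.01 on the other arrays, and 0 had an unadjusted p under 0.05.

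**Figure D5:**
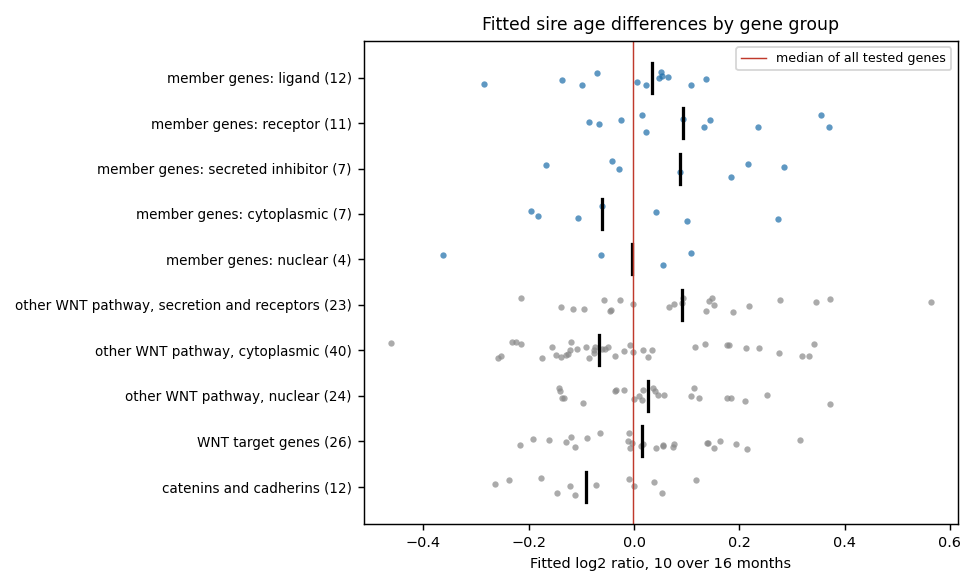
Each point is the fitted log2 ratio of 10 over 16 months of 1 gene, for the WNT genes by role and for the other gene lists; black lines are the medians and the red line is the median of all tested genes, -0.0027. The medians of the WNT roles lie between -0.06 and 0.09.

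Markers of the embryo's own lineages and of other cells were read in the same way. Each marker gene was counted by its probe with the most readings above background, while the share over all probes is one of single probes. Of 11 trophectoderm markers 10 were above background in all 8 readings, and of 9 inner cell mass markers 7 were, beside 53.7% of all probes with a symbol. Of 10 cumulus and granulosa markers 3 were, of 10 oocyte markers 3, of 8 leukocyte and erythroid markers 3, and of 7 sperm markers 1, with AMH, ZAR1 and LYZ above background in 0 readings. The median fitted ratios were -0.10 for trophectoderm, 0.07 for inner cell mass, 0.03 for cumulus, -0.12 for oocyte, 0.12 for blood and 0.21 for sperm markers, over 6 to 11 tested genes each. No marker passed the adjusted test, and 4 had an unadjusted p under 0.05. BTG4, an oocyte gene that acts in the clearance of maternal mRNA, had log2 ratios of -1.23, -1.92, 0.22 and -0.34 and fitted at -0.82 ± 0.16 (limma unadjusted p = 0.00101, adjusted p = 0.957). It averaged -1.575 over replicates 1 and 2 and -0.06 over replicates 3 and 4, beside a dye effect of -0.76. Its multiples of the negative control ran from 1.03 to 3.0. The sperm marker SPATA6 fitted at 0.58 ± 0.18, and the leukocyte markers PTPRC and CD74 at 0.49 ± 0.20 and -0.29 ± 0.12, on opposite sides of 0. The trophectoderm median was 0.18, 0.20, -0.38 and -0.02 on replicates 1 to 4. The part of these lineages in the WNT values was not tested.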

How the data were processed

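RNA from blastocysts of both sire ages was hybridised on 4 two-colour arrays. Per the labels' protocols it was amplified and tagged chemically with Cy3 or Cy5. Per the file headers, the deposited scans gave foreground and local background intensity per spot at 635 nm (Cy5) and 532 nm (Cy3), not normalised. Another deposited table of the authors held log2 ratios, for which the submitters' processing notes name limma (version and settings not given in the sources used here). Each column correlated at 0.952 to 0.979 with the ratios of its own array in the direction Cy5 over Cy3, and column medians were -0.02, -0.01, -0.0057 and -0.0090. Whether it was centred on purpose is unknown, and it served as an alternative.

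Spot medians were corrected with normexp (offset 50) and normalised by loess within arrays (R 4.3.3, limma 3.58.1), with control spots at weight 0. Of 43794 embryo probes, 175 with a set-aside spot and 7294 dim ones were left out. Dim probes had a reading above background on fewer than 2 arrays. No WNT spot was set aside. The fit used lmFit and eBayes with dye and age coefficients (2 residual degrees of freedom, 5.72 from the prior), and Benjamini-Hochberg over 36325 probes. Standard errors are those of the fit. The fit was also run on simulated data with independent normal noise, which does not show how it performs on these arrays. The p-values measure the spread between these arrays, which the labels do not tie to bulls, and precision is limited by how many arrays there are. The arrays are areas of 1 slide, so no slide batch could be tested.

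Symbols came from the platform annotation, and all 49 are current in the RefSeq table for ARS-UCD2.0. No coordinates or sequences are given, since neither the build behind the probes nor a sequence table was used here. Members, roles and lists were chosen with earlier results of these data known. Values on each array are given for the brightest gene of each role, for WNT and other pathway genes with an unadjusted p under 0.05, for WNT genes of the same sign on 4 arrays with a 1.25-fold fit, and, picked after values were seen, for BTG4, FZD4, DKKL1, AXIN2, CTNNB1, DVL1 and GSK3A. Alternatives covered normalization, background correction, spot means, the filter, the dye coefficient, probe averaging, the authors' table and leaving out each array.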

Additional observations from a re-analysis of the deposited data

Results flagged for a closer look

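Of 47 tested WNT probes, 2 had 1 array far from the other 3. The share over all tested probes was not computed. A chance rate of about 1 in 20 holds only for values without a dye effect. These single-array ratios still hold that effect, so the count was not set against chance. FZD9, a frizzled receptor, stood at -0.61 on replicate 3 (log2 ratio of 10 over 16 months), against 0.15 to 0.30 on the other arrays. TCF7L2 (EMBV3_25615), a partner of β-catenin, stood at -0.0755 on replicate 3, against 0.16 to 0.18. Both probes were dim: FZD9 reached 1.48 times the negative control and this TCF7L2 probe 1.62 times. Both deviating values came from replicate 3, whose ratios had the widest spread over all probes. Its part in them was not tested.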

How the results depend on the processing

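The counts of WNT probes past the adjusted test, and of all probes past it, were 0 under median centring, no background correction, spot means, the authors' deposited table, no filter, both stricter filters and no dye coefficient. Leaving out 1 array gave 0 to 1858 probes in all, with 6 without replicate 3 and 1858 without replicate 4, and 0 to 2 WNT probes, with FZD3 (0.63) and FZD4 (0.83) past the test without replicate 4. WNT probes at an unadjusted p under 0.05 numbered 0 with no dye coefficient and 0 to 9 with an array left out, against 1. The median over WNT genes was -0.025 and 9 of 19 genes were above 0 when only probes with all 8 readings above background were kept, against 0.04 and 25 of 41. With an array left out the median was 0.0022 to 0.031, lowest without replicate 3, and 21 to 25 genes were above 0. WNT probes above background numbered 39 at 3 median absolute deviations, 50 with spot means and 43 to 47 with an array left out, against 47. With spot means WNT3A stood at -0.069, against 0.14. No filter, both stricter filters and no dye coefficient left the fitted value of a gene as it was, so no sign could change there. Of 468 recomputed gene values, those settings included, 38 changed sign, and 17 of 41 genes kept theirs in every setting run. The cause of these shifts was not tested. Each log2 ratio already pairs both ages on its array. Beyond that, no paired analysis was possible because the dye orientations share no replicate numbers.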
